A study of Homo sapiens with 8 samples.

Results

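The ATF4 amino acid response genes are 39 genes that the transcription factor ATF4 and its partners are known to switch on, or that act with ATF4, when amino acids run short or protein folding fails. They were chosen by name from textbook knowledge of the pathway and not from any measured value, and all 39 were found among the 25702 genes listed in the deposited tables. They fall into 8 transcription factors and regulators, 5 stress outputs, 13 enzymes of amino acid and one-carbon synthesis, 6 amino acid transporters and 7 tRNA synthetases. Of the 39, 38 passed the filter on low counts that 14333 genes passed, and NUPR1, a small stress-induced chromatin protein, did not.

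In the integrated stress response, kinases that sense uncharged tRNA, unfolded protein, haem shortage or double-stranded RNA phosphorylate the initiation factor eIF2, which slows translation in general and raises translation of the ATF4 mRNA through its upstream open reading frames. ATF4 protein then pairs with C/EBP family proteins at composite elements in the promoters of genes for amino acid synthesis, amino acid import and tRNA charging, and of feedback regulators such as DDIT3 (CHOP), TRIB3 and CHAC1. Pancreatic ductal adenocarcinoma (PDA) cells live in a nutrient-poor tissue and are known to use this response to keep their amino acid supply.

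RNA-seq was performed on SUIT2, an established human PDA line derived from a liver metastasis and grown in RPMI 1640 with 10% FBS. The 8 libraries were 4 labelled shScr, which received a scramble shRNA, 2 labelled shEn1_1 and 2 labelled shEn1_2, which received 1 of 2 constructs against EN1, a homeobox transcription factor. All libraries came from this 1 line, the labels name no other agent, and the comparison asks what loss of EN1 changes in these cells. The labels do not say whether the libraries of a group came from separate cultures, so p-values measure only the spread between these libraries, which may be technical.

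EN1 itself, the gene that the shRNAs target, was not lower on average under the shEn1 labels. Its CPM (counts scaled to a fixed library size after TMM normalization) was 4.10, 4.50, 4.94 and 2.51 in shScr 1 to 4, 5.77 and 5.41 in shEn1_1.1 and shEn1_1.2, and 1.35 and 6.70 in shEn1_2.1 and shEn1_2.2. The groups overlapped, with 3 of the 4 libraries labelled shEn1 above every library labelled shScr and the other one below every one (log2 fold change 0.26 ± 0.43 (SE), edgeR quasi-likelihood adjusted p = 1.00 after Benjamini-Hochberg, two-sided p = 0.543 by an exact permutation test of the CPM). The study describes EN1 as depleted by shRNA in SUIT2 and measured it there by RT-qPCR. In these counts the targeted gene was not shown to be lower under the shEn1 labels. Every group below is therefore a group of libraries labelled shEn1 or shScr, and no difference is read as an effect of EN1.

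Library totals lay between 33423590 and 37810604 counts. In a principal component analysis of all tested genes, the first component (50.4% of variance) set shScr 4 and shEn1_2.1 apart from the other 6. The second (17.9%) set shScr 3 and shEn1_1.1 apart at its low end (-31.5 and -22.6). At its high end were shScr 1 and shEn1_1.2 (19.9 and 18.8). All 8 epithelial markers were detected in every library, with a summed CPM of 11752 to 16081 under the label shScr and 11482 to 18754 under shEn1. Of 25 markers of acinar, endocrine, fibroblast, leukocyte and endothelial cells, 15 were at 0 in every library, and the summed CPM of the 25 was 11.7 to 34.9 under shScr and 11.4 to 40.3 under shEn1, most of it from CD68 (7.75 to 34.6). In 6 of the 8 epithelial markers shScr 4 and shEn1_2.1 were the 2 lowest libraries, as in EPCAM, at 234 and 241 CPM against 366 to 589 in the other 6. The exceptions were KRT8 and KRT18, the most abundant of the 8, which were lower in shScr 3 (6279 and 3586 CPM) and shEn1_1.1 (6094 and 3628) than in shScr 4 (6486 and 4254) and shEn1_2.1 (6367 and 4219).

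The composite element bound by ATF4 and C/EBP proteins has the core TGATGNAA, and the members' promoters were searched for these letters. RefSeq promoters (GRCh38.p14, 250 bases before to 50 after a gene's start) were listed for 34 of the 39 members. The core, searched on both strands, was found in 13 of them (38.2%): CEBPG, JDP2, CHAC1, ASNS, MTHFD1L, SLC3A2, SLC7A1, SLC1A4, SLC1A5, AARS1, GARS1, NARS1 and MARS1. The share was 2.68% over the 10915 tested genes with an entry and 4.46% over all 27305 genes with an entry. A gene counted if any of its listed starts had a match, and some members had several starts, as MTHFD1L with 4. Among 89 further genes of the integrated stress response and amino acid pathways, 12 of the 70 with an entry held it (17.1%). Members were chosen as known ATF4 targets, so the share describes the list, and a match is a run of letters and not a measured binding site.

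Stretches of 100 bases from 8 of these promoters follow, 5′ to 3′ on the strand of the gene, with the core or its reverse complement in capitals. ASNS, CHAC1, JDP2, SLC1A4 and MARS1 are shown because their values separate the libraries most clearly among promoters with the core, and CEBPG, GARS1 and SLC1A5 because they carry the same letters and vary less.
ASNS (asparagine synthetase), chr7:97872439-97872538, - strand: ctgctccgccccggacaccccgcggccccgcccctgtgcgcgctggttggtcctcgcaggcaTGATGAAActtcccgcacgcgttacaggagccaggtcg
CHAC1 (glutathione-degrading cyclotransferase), chr15:40953221-40953320, + strand: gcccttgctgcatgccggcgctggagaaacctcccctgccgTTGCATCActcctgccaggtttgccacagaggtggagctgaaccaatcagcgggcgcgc
JDP2 (basic leucine zipper repressor), chr14:75427922-75428021, + strand: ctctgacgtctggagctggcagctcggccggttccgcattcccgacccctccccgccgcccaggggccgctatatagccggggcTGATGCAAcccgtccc
SLC1A4 (neutral amino acid transporter), chr2:64989307-64989406, + strand: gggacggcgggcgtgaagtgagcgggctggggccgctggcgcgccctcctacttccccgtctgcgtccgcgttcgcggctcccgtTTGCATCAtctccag
MARS1 (methionyl-tRNA synthetase), chr12:57487976-57488075, + strand: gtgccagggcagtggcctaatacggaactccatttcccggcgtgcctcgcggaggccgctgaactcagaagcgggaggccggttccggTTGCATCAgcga
CEBPG (basic leucine zipper partner of ATF4), chr19:33374009-33374108, + strand: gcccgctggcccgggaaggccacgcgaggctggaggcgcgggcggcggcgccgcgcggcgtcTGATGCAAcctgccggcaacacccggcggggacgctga
GARS1 (glycyl-tRNA synthetase), chr7:30594778-30594877, + strand: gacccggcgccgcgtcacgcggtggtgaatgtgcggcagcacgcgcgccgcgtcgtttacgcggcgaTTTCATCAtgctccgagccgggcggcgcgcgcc
SLC1A5 (glutamine transporter), chr19:46784874-46784973, - strand: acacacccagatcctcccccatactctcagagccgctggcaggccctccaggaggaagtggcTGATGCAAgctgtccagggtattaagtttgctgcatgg

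The core read TGATGCAA on one strand or the other in CHAC1, JDP2, SLC1A4, MARS1, CEBPG and SLC1A5, and TGATGAAA in ASNS and GARS1. Counted from the RefSeq start, it lay at bases -68 to -61 in ASNS, at -209 to -202 in CHAC1, at -42 to -35 in CEBPG and across the start itself in SLC1A4 and MARS1. No entry was listed for SHMT2, ALDH1L2, PYCR1, PSPH and NUPR1. The counts were made on hg19 by the study's methods, so these coordinates belong to the promoter table only.

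No ATF4 response gene passed the test between the labels. Of the 38 members tested, 0 passed an adjusted p of 0.05 and 0 had an unadjusted p below 0.05 by edgeR's quasi-likelihood test, beside 0 called (0%) and 44 at the unadjusted level (0.307%) of all 14333 genes. DESeq2 called 2 genes over the whole table, and neither was a member. The log2 fold changes, libraries labelled shEn1 minus those labelled shScr, ran from -0.21 in JDP2 to 0.14 in CEBPB with standard errors of 0.10 to 0.42, and their median was 0.02 beside -0.00281 over all genes. Higher estimates were given for 23 members and lower ones for 15, or 60.5% higher beside 48.9% of all tested genes. The smallest unadjusted p of any member in the edgeR fit was 0.344, for PSPH, the last enzyme of serine synthesis. In 0 of the 38 did the libraries of the labels separate without overlap, which happened in 0.167% of all genes upward and 0.251% downward. For every one of the 38, the difference between label means was smaller than the average SD within a label, which also held for 93.7% of all tested genes. Bulk counts cannot tell fewer cells with a transcript from less of it per cell.

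**Figure D1:**
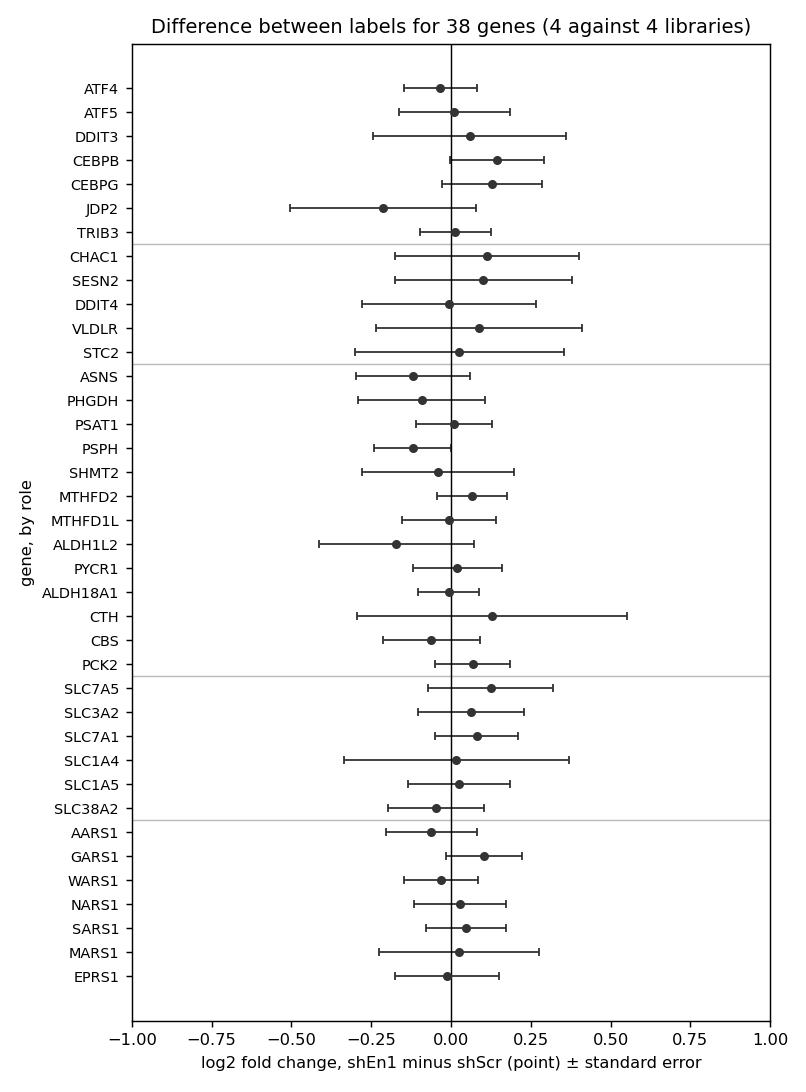
Log2 fold change (points) and standard error (bars) of the 38 tested ATF4 response genes, 4 libraries labelled shEn1 minus 4 labelled shScr, with genes on the vertical axis grouped by role. Points lie between -0.21 (JDP2) and 0.14 (CEBPB), and all 38 error bars reach across 0.

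Among the transcription factors, ATF4 (Entrez 468, chr22:39915700-39918688, + strand, hg19, as all gene positions here) was among the steadiest. Its CPM was 315, 273, 300.2 and 275 in shScr 1 to 4, 331 and 262 in the libraries labelled shEn1_1, and 278 and 265 in those labelled shEn1_2. The highest library exceeded the lowest 1.27-fold, the label means were 291 ± 20.3 and 284 ± 32.4 (SD, n = 4 each), and the log2 fold change was -0.03 ± 0.11. At a median of 195 CPM per kilobase of its canonical transcript it was among the most abundant members, beside SLC3A2 (204) and SHMT2 (199). ATF4 activity is set largely by translation of this mRNA, which RNA counts do not measure.

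DDIT3, the pro-death factor CHOP that ATF4 induces, varied much more than ATF4. Its CPM was 23.6, 19.6, 34.2 and 21.9 in shScr 1 to 4, then 42.9 in shEn1_1.1, 16.6 in shEn1_1.2, 25.7 in shEn1_2.1 and 18.2 in shEn1_2.2. Its highest values were in shEn1_1.1 and shScr 3, 1 library of each label, and the lowest was the second library of the same construct as the highest, a 2.58-fold range. Means of 24.8 ± 6.46 and 25.8 ± 12.0 gave a log2 fold change of 0.06 ± 0.30. DDIT3 (Entrez 1649, chr12:57910371-57915520, - strand) shares 355 exon bases with MARS1 on the opposite strand, and as the strand setting of the counting is not given in the sources used here, reads there cannot be assigned to 1 of them.

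ATF5, a close relative of ATF4 that drives the mitochondrial stress response, was at 28.8, 25.6, 33.8 and 39.7 CPM in shScr 1 to 4 and at 34.7, 26.7, 39.0 and 28.4 in shEn1_1.1, shEn1_1.2, shEn1_2.1 and shEn1_2.2. Its top values were in shScr 4 and shEn1_2.1, and the label means (32 ± 6.15 and 32.2 ± 5.69) differed by far less than their SD. ATF5 shares 565 exon bases with NUP62 and 75 with IL4I1 on the other strand, so the limit given for DDIT3 holds here too. CEBPB, a C/EBP partner of ATF4, was at 70.3, 54.1, 67.9 and 55.9 CPM under shScr and at 63.8, 86.2, 59.7 and 64.5 under shEn1. It had the highest fold change of any member (0.14 ± 0.15), with shEn1_1.2 above every other library and the other 3 labelled shEn1 inside the shScr range. CEBPG stayed between 18.7 and 27.7 CPM.

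JDP2 (Entrez 122953, chr14:75894419-75940814, + strand), a leucine zipper repressor induced by amino acid shortage, had the lowest fold change (-0.21 ± 0.29). It was at 5.15, 9.82, 8.64 and 12.5 CPM in shScr 1 to 4, at 7.14 and 5.12 under shEn1_1, and at 10.1 and 8.79 under shEn1_2. The labels overlapped fully, since shScr 1 and shEn1_1.2 were both near 5.1 and shScr 4 was highest.

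TRIB3, a pseudokinase that ATF4 induces and that feeds back on it, was steadier still. Its CPM was 34.5, 36.9, 35.0 and 32.2 under shScr and 34.4, 39.3, 32.6 and 33.6 under shEn1, a 1.22-fold range. NUPR1 had 0 counts in all 4 libraries labelled shScr, 2 in each library of shEn1_1, 8 in shEn1_2.1 and 0 in shEn1_2.2. A count of 0 allows up to 3 counts in a library, a limit that covers counting error only since PCR reads are not independent molecules, and no comparison is drawn from these counts.

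**Figure D2:**
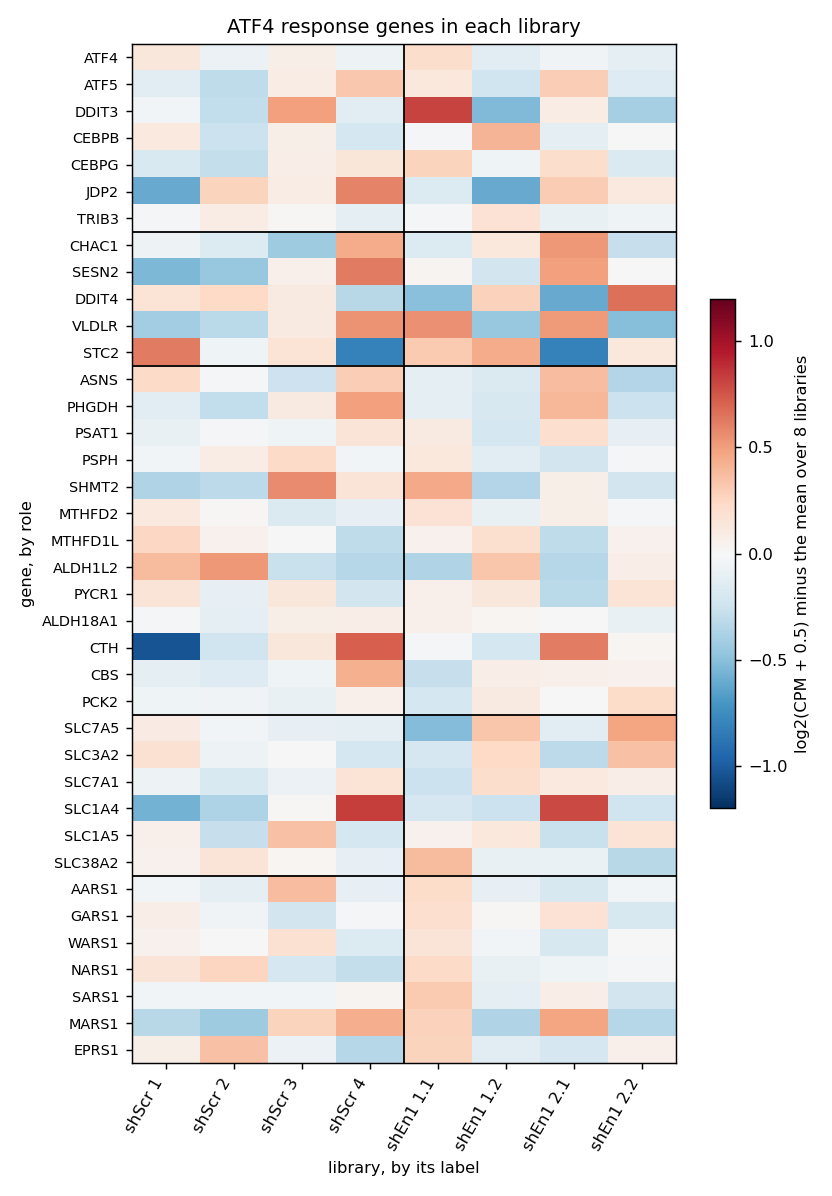
Heat map of log2(CPM + 0.5) in each library minus the gene's mean over the 8 libraries, for the 38 tested genes (rows, by role) and libraries (columns, the vertical line parting the labels; shEn1 1.2 stands for construct 1, library 2). The columns of shScr 4 and shEn1 2.1 look alike, as in SLC1A4, STC2 and CTH, and in no row do the libraries left and right of the line separate without overlap.

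The 5 stress outputs had the highest median range over the libraries of any role, although the widest single range was that of CTH, a synthesis enzyme (4.46-fold). In none of the 5 did the labels separate. All 5 had a highest library more than 2-fold above the lowest (median 2.32-fold), against 9 of the 38 members (23.7%) and 35.8% of all tested genes. Limited to genes with a mean above 10 CPM, 14.7% of 34 members and 14.9% of 9464 genes passed 2-fold. The medians there were 1.55-fold and 1.51-fold.

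CHAC1 (Entrez 79094, chr15:41245160-41248710, + strand), which breaks down glutathione and is a classic readout of ATF4, was scarce at 4.01, 3.69, 2.98 and 5.90 CPM in shScr 1 to 4, 3.70 and 4.62 in shEn1_1.1 and shEn1_1.2, and 6.22 and 3.38 in shEn1_2.1 and shEn1_2.2. SESN2, a leucine sensor that restrains mTORC1, was at 8.38, 8.93, 13.0 and 19.4 CPM under shScr and at 12.7, 10.6, 17.7 and 12.4 under shEn1. In both genes shScr 4 and shEn1_2.1 were the highest libraries, and the other library of construct 2 lay within the range of shScr 1 to 3. CHAC1 had means of 4.15 ± 1.24 and 4.48 ± 1.28, and SESN2 of 12.4 ± 5.09 and 13.3 ± 3.03.

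STC2 (Entrez 8614, chr5:172741726-172755450, - strand), a secreted glycoprotein induced by stress, showed the opposite order. It was at 113, 70.3, 82.0 and 41.3 CPM in shScr 1 to 4, 91.1 and 99.5 under shEn1_1, and 41.3 and 79.9 under shEn1_2. The lowest libraries, shScr 4 and shEn1_2.1, were equal to 3 digits and carried different labels, and the highest of the 2.73-fold range was shScr 1. The labels overlapped from 41.3 to 99.5 CPM (log2 fold change 0.03 ± 0.33).

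DDIT4 (REDD1), another brake on mTORC1, was at 96.7, 102, 93.2 and 68.6 CPM under shScr, and at 61.0, 104, 56.6 and 137 in shEn1_1.1, shEn1_1.2, shEn1_2.1 and shEn1_2.2. Within each construct the first library was low and the second high, while the label means were 90.1 ± 14.8 and 89.7 ± 38.1. VLDLR, a lipoprotein receptor induced through ATF4, was at 6.93, 7.42, 10.1 and 13.9 CPM under shScr and at 14.0, 6.71, 13.6 and 6.45 under shEn1. Its 3 highest libraries were shEn1_1.1, shScr 4 and shEn1_2.1.

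**Figure D3:**
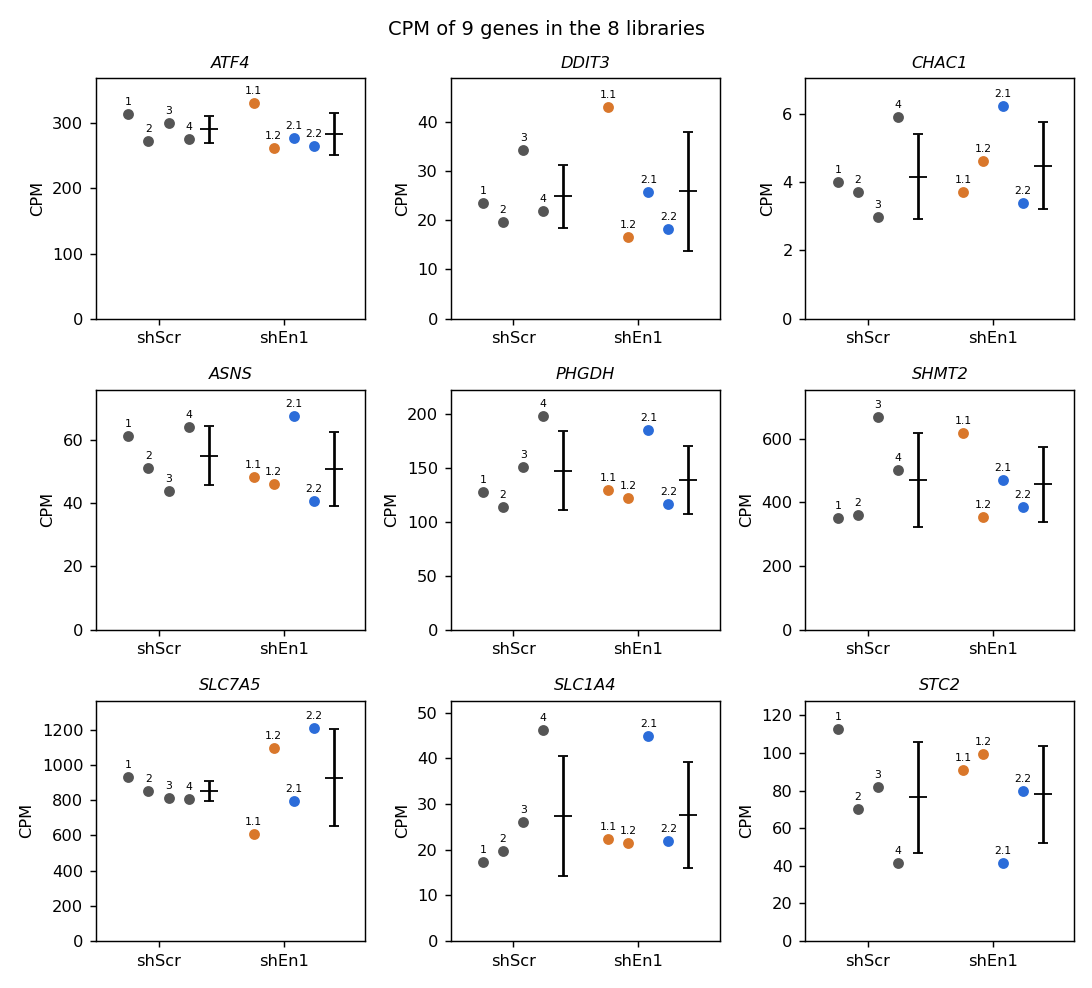
CPM of 9 ATF4 response genes in the 8 libraries (points; numbers name the library, 1 to 4 for shScr in grey, 1.1 and 1.2 for construct 1 in orange, 2.1 and 2.2 for construct 2 in blue), with bars at the mean ± SD of the 4 libraries of each label and every axis starting at 0. ATF4 runs from 262 to 331 CPM, DDIT3 peaks in shEn1_1.1 (42.9) and shScr 3 (34.2), and SLC1A4 peaks in shScr 4 (46.2) and shEn1_2.1 (45.0).

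Of the serine and one-carbon enzymes, PHGDH, PSAT1, SHMT2 and ALDH1L2 had libraries of both labels at the same end of their order. PHGDH, which opens serine synthesis, was at 127, 114, 151 and 198 CPM under shScr and at 129.7, 122, 185 and 117 under shEn1. PSAT1, the next enzyme, was at 147, 154, 151 and 174 CPM under shScr and at 169, 135, 180.2 and 146 under shEn1. Both were highest in shScr 4 and shEn1_2.1, with fold changes of -0.09 ± 0.20 and 0.01 ± 0.12 on the log2 scale. PSPH, which completes the pathway, stayed between 32.9 and 44.8 CPM and did not share that order.

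SHMT2 (Entrez 6472, chr12:57623356-57628718, + strand), the mitochondrial enzyme that splits serine into glycine and a one-carbon unit, was at 351, 361, 668 and 500.1 CPM in shScr 1 to 4, 616 and 353 under shEn1_1, and 471 and 386 under shEn1_2. Its top libraries were shScr 3 and shEn1_1.1, and means of 470.1 ± 148 and 457 ± 117 left a log2 fold change of -0.04 ± 0.24. MTHFD2, which oxidises the one-carbon unit in mitochondria, was far steadier: 180.2, 168, 147 and 155 CPM under shScr and 187, 156, 174 and 163 under shEn1, a 1.27-fold range. It shares 1324 exon bases with SLC4A5 on the other strand. ALDH1L2, which returns mitochondrial one-carbon units to carbon dioxide and NADPH, was at 24.4, 27, 15.5 and 14.7 CPM under shScr and at 14.4, 23.6, 14.7 and 19.8 under shEn1. The 4 libraries near 15 CPM were shScr 3, shScr 4, shEn1_1.1 and shEn1_2.1, 2 of each label. MTHFD1L lay between 64.9 and 95.7 CPM.

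ASNS (Entrez 440, chr7:97480989-97501854, - strand), which makes asparagine and is the best known ATF4 target, was at 61.2, 51.1, 43.8 and 64.2 CPM in shScr 1 to 4, 48.3 and 46.1 under shEn1_1, and 67.6 and 40.8 under shEn1_2. Construct 2 thus held both the highest and the lowest value, and the label means of 55.1 ± 9.34 and 50.7 ± 11.7 gave -0.12 ± 0.18 (log2). For proline synthesis, PYCR1 lay between 138 and 193 CPM and shares 408 exon bases with MYADML2 on its own strand. ALDH18A1, the first enzyme of that pathway, was the least variable member with 136, 128, 145 and 147 CPM under shScr and 145, 141, 138 and 131 under shEn1, a 1.14-fold range.

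CTH (Entrez 1491, chr1:70876901-70905534, + strand), which makes cysteine from cystathionine, had the widest relative range of all tested members at low counts. It was at 1.08, 2.24, 3.07 and 4.83 CPM in shScr 1 to 4, at 2.72 and 2.30 under shEn1_1, and at 4.47 and 2.80 under shEn1_2. The 4.46-fold gap was between shScr 1 and shScr 4, libraries of the same label. CBS, the enzyme before it, was much higher at 63.5, 61.8, 66.5 and 92.8 CPM under shScr and 56.7, 72.7, 71.9 and 71.3 under shEn1. In CBS shScr 4 stood above the other libraries, but shEn1_2.1 did not. PCK2, mitochondrial PEP carboxykinase, was at 47.0, 47.2, 45.8 and 50.9 CPM under shScr and at 42.0, 52.4, 48.7 and 56.8 under shEn1.

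SLC7A5 (LAT1; Entrez 8140, chr16:87863629-87903113, - strand) and SLC3A2 (CD98 heavy chain; Entrez 6520, chr11:62623476-62656352, + strand) form the leucine transporter, and both were highest in shEn1_2.2. SLC7A5 was at 932, 852, 815 and 805 CPM under shScr and at 609, 1095, 794 and 1212 in shEn1_1.1, shEn1_1.2, shEn1_2.1 and shEn1_2.2. SLC3A2 was at 446, 375, 393 and 339 CPM under shScr and at 341, 464, 314 and 501 under shEn1. For both subunits shEn1_2.2 and shEn1_1.2 were above every library labelled shScr. For SLC7A5 shEn1_1.1 and shEn1_2.1 were below every one, so the label shEn1 held both ends of the range. The means were 851 ± 57.7 and 927 ± 276 CPM for SLC7A5, whose SD was larger under the label shEn1, and 388 ± 44.6 and 405 ± 91.2 CPM for SLC3A2. The log2 fold changes were 0.12 ± 0.20 and 0.06 ± 0.17, and neither passed the test (adjusted p = 1.00, edgeR with Benjamini-Hochberg adjustment).

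SLC1A4 (ASCT1; Entrez 6509, chr2:65215611-65250999, + strand), which carries serine and other neutral amino acids, was at 17.2, 19.8, 25.9 and 46.2 CPM in shScr 1 to 4, at 22.3 and 21.4 under shEn1_1, and at 45.0 and 21.8 under shEn1_2. Only shScr 4 and shEn1_2.1 lay above 25.9 CPM, and the label means of 27.3 ± 13.1 and 27.6 ± 11.6 were nearly equal. SLC1A5 (ASCT2), the related glutamine carrier, was at 273, 216, 336 and 227 CPM under shScr and at 272, 286, 218 and 293 under shEn1. Here shScr 4 and shEn1_2.1 lay close together near the bottom, beside shScr 2. The arginine and lysine carrier SLC7A1 was at 194, 179, 194 and 226 CPM under shScr and at 169, 235, 220.3 and 213 under shEn1. SLC38A2 (SNAT2), which adapts to amino acid starvation, lay between 188 and 308 CPM.

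The 7 tRNA synthetases, which charge tRNA with amino acids and are raised by ATF4 as a group, had ranges with a median of 1.46-fold, close to that of the synthesis enzymes (1.47-fold), and 0 of 7 were above 2-fold. AARS1 was at 306, 289, 404 and 292 CPM under shScr and at 364, 292, 275 and 305 under shEn1, with its top values in shScr 3 and shEn1_1.1. GARS1 was at 197, 181, 159 and 183 CPM under shScr and at 213, 188, 209 and 163 under shEn1. WARS1, which interferon also induces, was at 224, 215, 246 and 194 CPM under shScr and at 242, 212, 189 and 217 under shEn1. It shares 287 exon bases with WDR25 on the other strand. Smaller overlaps on the other strand were found for ALDH1L2, SHMT2, SLC1A5 and AARS1.

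MARS1 (Entrez 4141, chr12:57869228-57911352, + strand) had the widest range of the synthetases. It was at 245, 229, 370.5 and 416 CPM in shScr 1 to 4, at 374 and 239.7 under shEn1_1, and at 426 and 243 under shEn1_2. Its values fell into a set near 240 and a set from 370.5 to 426, each with 2 libraries of each label. The means were 315 ± 92.2 and 321 ± 94.1 CPM. Besides the bases shared with DDIT3, MARS1 shares 519 exon bases with ARHGAP9 on the other strand. NARS1, SARS1 and EPRS1 lay between 108 and 157, 149 and 216, and 164 and 265 CPM.

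A fit of 3 groups over 15129 genes set each construct against the 4 libraries labelled shScr, which the contrasts share. Under shEn1_1, 0 of 38 members were called and 0 had an unadjusted p below 0.05 (0% and 0.674% of all genes), with a median log2 fold change of 0.03 and a range of -0.56 ± 0.34 (JDP2) to 0.32 ± 0.37 (STC2). Under shEn1_2 the counts were again 0 and 0 (0% and 0.39% of all genes), with a median of 0.01 and a range of -0.34 ± 0.38 (STC2) to 0.37 ± 0.51 (CTH). The constructs were therefore side by side at 0.32 and -0.34 for STC2, at -0.16 and 0.37 for CTH, at -0.32 and 0.29 for SLC1A4 and at 0.26 and -0.18 for DDIT3. Set directly against each other, the constructs differed in 0 members at an adjusted p of 0.05 and in 0 at the unadjusted level (0% and 1.17% of all genes), with differences from -0.65 ± 0.44 (STC2) to 0.62 ± 0.39 (JDP2). The 2 libraries of a construct were themselves more than 1.5-fold apart in 7 of 38 members for shEn1_1 and in 11 of 38 for shEn1_2.

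**Figure D4:**
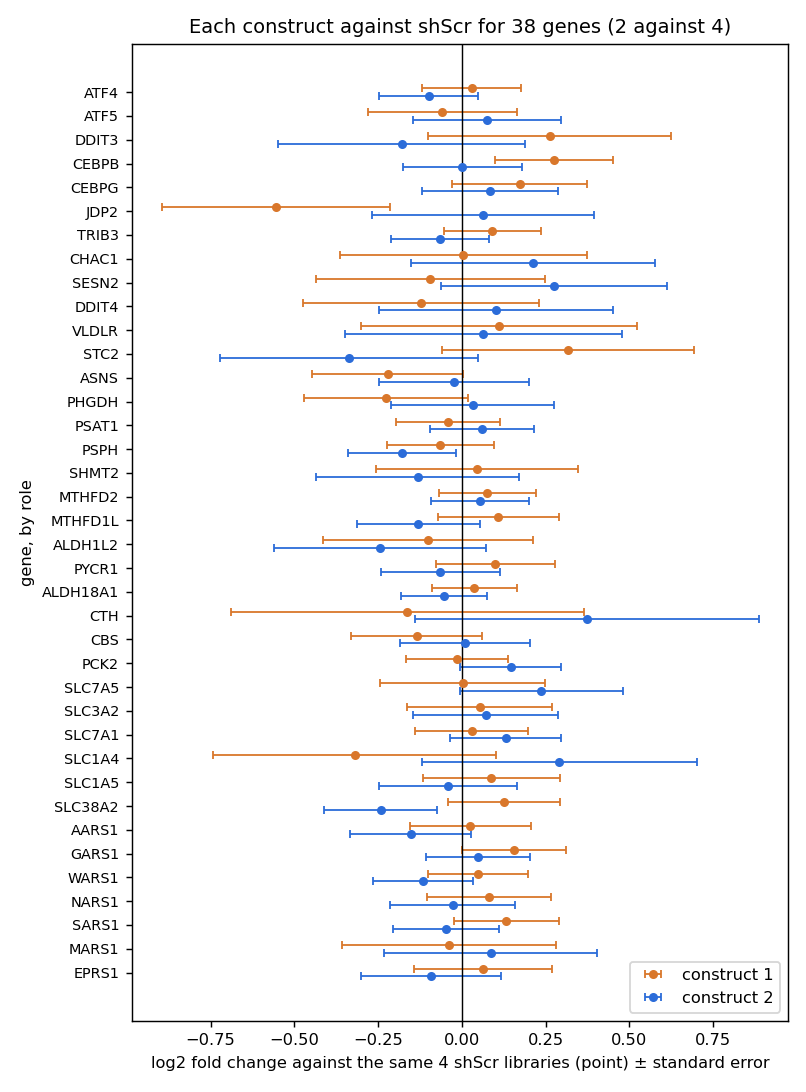
Log2 fold change (points) and standard error (bars) of the 38 tested genes for construct 1 (orange) and construct 2 (blue), each with 2 libraries, against the same 4 libraries labelled shScr. STC2 lies at 0.32 and -0.34 and SLC1A4 at -0.32 and 0.29, and the bars of the constructs overlap in every row but SLC38A2.

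The closest pair of libraries in these genes joined the labels shScr and shEn1. Over the 38 members, the root mean square difference in log2(CPM + 0.5) was smallest, at 0.13, between shScr 4 and shEn1_2.1. The same pair was also the closest over all tested genes (0.26). The next pair was shEn1_1.2 with shEn1_2.2 (0.21), both labelled shEn1 but of different constructs. Then came shScr 1 with shEn1_1.2 (0.23), shScr 2 with shEn1_2.2 (0.25) and shScr 3 with shEn1_1.1 (0.25). With each construct as a label of its own, the 8 pairs with the same label had a median of 0.44 (0.27 to 0.63) and the 20 pairs with different labels one of 0.42 (0.13 to 0.60). The largest distance of all, 0.63, was between shScr 1 and shScr 4.

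The order of the libraries in single genes was compared for the 5 closest pairs. The libraries shScr 4 and shEn1_2.1 were the 2 highest in 10 of 38 members (ASNS, ATF5, CHAC1, CTH, JDP2, MARS1, PHGDH, PSAT1, SESN2 and SLC1A4), beside 18.9% of all tested genes. They were the 2 lowest in 7 (EPRS1, MTHFD1L, PYCR1, SLC3A2, STC2, TRIB3 and WARS1), beside 19.2% of all genes. The libraries shScr 3 and shEn1_1.1 were the 2 highest in AARS1, DDIT3, PSPH, SHMT2 and WARS1 (5 of 38, beside 7.05% of all genes) and the 2 lowest in PCK2 (1 of 38, beside 6.83%). Labelled shEn1 both, shEn1_1.2 and shEn1_2.2 were the 2 highest in DDIT4, PCK2, SLC3A2 and SLC7A5 (4 of 38, beside 5.04% of all genes) and the 2 lowest in ATF4, DDIT3, PSAT1, SARS1 and VLDLR (5 of 38, beside 3.8%). The libraries shScr 1 and shEn1_1.2 were the 2 highest in 3 members and the 2 lowest in 2 (5.65% and 5.06% of all genes). For shScr 2 and shEn1_2.2 these counts were 0 and 2 (3.73% and 3.94%). The promoter core was present in 5 of the 10 members highest in shScr 4 and shEn1_2.1 (ASNS, CHAC1, JDP2, SLC1A4 and MARS1). It was present in 2 of 6 with an entry among the 7 lowest there, and in 6 of the other 18. Over all 34 members with an entry the share was 38.2%. Both this split and the choice of these 5 promoters for printing were made from the same values. The counts can therefore not tie the core to these libraries, and no conclusion is drawn from them. In the same libraries, shScr 4 and shEn1_2.1, 6 of the 8 epithelial markers, but not KRT8 and KRT18, were at their lowest. The TMM factors were at their highest there (1.06 and 1.07, others 0.962 to 1.00). EN1 was also lowest there, at 2.51 and 1.35 CPM against 4.10 to 6.70 in the other libraries. The part of the markers, the TMM factors and EN1 in these values was not tested.

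**Figure D5:**
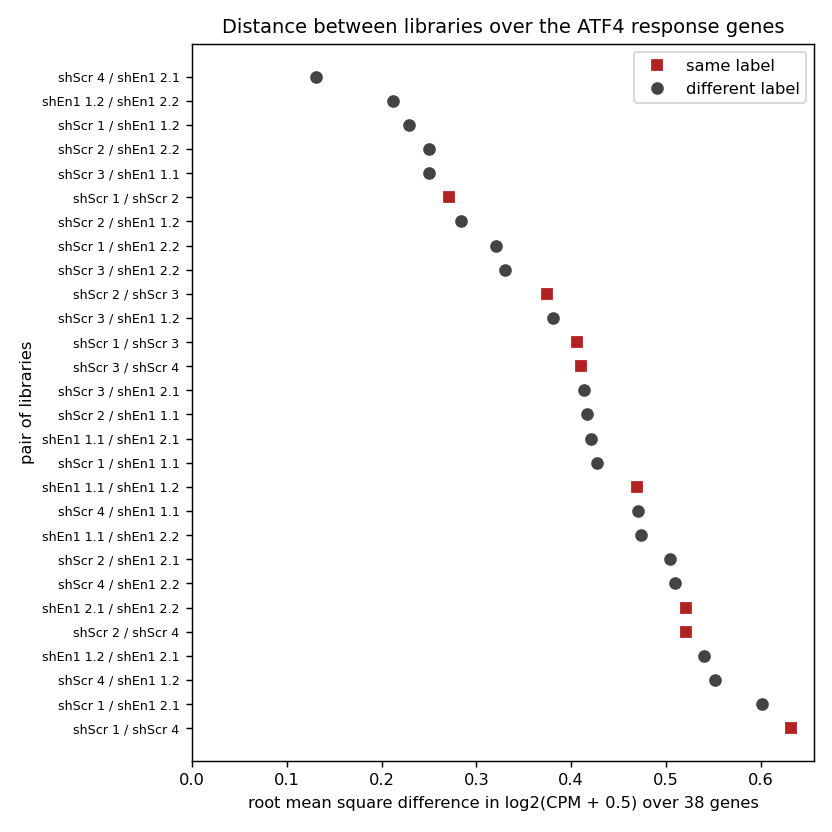
Root mean square difference in log2(CPM + 0.5) over the 38 tested genes (horizontal axis) for each of the 28 pairs of libraries (vertical axis), with red squares for pairs of the same label and grey circles for pairs of different labels. The 5 closest pairs, from 0.13 to 0.25, all join different labels, each construct being a label, and the widest pair, at 0.63, joins shScr 1 and shScr 4.

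Other genes of these pathways were read in the same way. Of 89 further genes of the integrated stress response, amino acid metabolism, transport and tRNA charging, 84 passed the filter. Of these, 0 were called, and 52 had a higher and 32 a lower estimate under the label shEn1. That is 61.9% higher, beside 48.9% of all tested genes. The median log2 fold change was 0.01, beside -0.00281 over all genes. The 14 upstream genes, among them the eIF2 kinases and phosphatase subunits, were 13 higher and 1 lower with 0 called. Their fold changes were -0.04 to 0.12, with SEs of 0.098 (EIF2B5) to 0.22 (PPP1R15A). The largest, 0.12 ± 0.11 in EIF2AK4, was slightly above its own SE. VARS1, valyl-tRNA synthetase, was the single one with an unadjusted p below 0.05, beside 0.307% of all genes. Its counts were 14, 26, 44 and 16 in shScr 1 to 4, 392 and 38 under shEn1_1, and 33 and 39 under shEn1_2, so 1 library, shEn1_1.1, set the log2 fold change of 2.32 ± 0.88 (adjusted p = 1.00, edgeR with Benjamini-Hochberg adjustment). Without that library the value was 0.58. VARS1 had a median of 0.98 CPM over all libraries. The other cytosolic synthetases of the wider list lay between 75.4 (CARS1) and 409 CPM (IARS1). The cause of the low VARS1 counts was not tested. After VARS1 came the cystine carrier subunit SLC3A1 (-0.45 ± 0.51) and the lysine carrier SLC7A7 (0.40 ± 0.53), both near 1 CPM.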

How the data were processed

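RNA was extracted from SUIT2 cells, mRNA was purified with polyT beads, and paired-end reads were aligned with HISAT2 and counted per gene with featureCounts. The deposited tables, 1 for each of 8 libraries, hold whole-number counts of reads by Entrez gene, which the authors did not normalize. The methods name hg19, the processing notes list mm9 for every library, and the annotation and strand setting are not given in the sources used here. Of the 25702 Entrez numbers listed, 23696 were matched to a human gene symbol, and all the epithelial markers had counts in every library. Gene positions come from GENCODE lifted to GRCh37.

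Counts were filtered with filterByExpr (minimum count 10), scaled with TMM factors and tested by edgeR 4.0.16 (quasi-likelihood, robust) in R 4.3.3 with Benjamini-Hochberg adjustment at 0.05. All 8 libraries entered, grouped by title, 4 against 4 or in 3 groups. The steps were tested on simulated counts with a smaller spread between libraries than in these data. That test does not show what changes they could detect at the real spread. Depth differed 1.13-fold between libraries. Fold changes are log2, with SE. The members were given by name, and the further lists were written with earlier results of these data known. Named genes were EN1, a list of 27 members, the 3 widest and 3 narrowest members, every member called, and the 3 largest changes of the wider list plus every gene of it called; CPM is given for each library, and other members by their range, except JDP2, MARS1, CEBPG and PSPH, named after their values were seen. Alternatives were DESeq2 1.42.0 and its size factors, limma 3.58.1 (voom), upper-quartile and library-size scaling, other filters, a replicate block and libraries left out.

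Replicate numbers 1 and 2 occur under every label. Deviations of same-numbered libraries from their label means correlated between -0.37 and 0.52. With 2 libraries per construct, their deviations mirror each other, so these values can neither show nor exclude a pairing. The numbers were not taken to pair the libraries.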

Additional observations from a re-analysis of the deposited data

Results flagged for a closer look

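In each label's 4 libraries, every gene was checked for a library far from the other 3 (the gap as a share of the group's range, above Dixon's 95% critical value). Of 78 such groups, 5 had one, and chance flags about 1 in 20 groups, or 3.9 here. CBS was at 92.8 CPM in shScr 4 against 61.8 to 66.5 in the other libraries labelled shScr, and at 56.7 in shEn1_1.1 against 71.3 to 72.7 in the others labelled shEn1. SLC1A4 was at 45.0 CPM in shEn1_2.1 against 21.4 to 22.3, AARS1 at 404 in shScr 3 against 289 to 306, and SARS1 at 178 in shScr 4 against 170.3 to 170.7. SLC1A4 was also high in shScr 4 (46.2 CPM), where the wider spread of that label kept it from being singled out.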

How the results depend on the processing

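No member of the ATF4 list was called under any of the alternatives run, with 38 members tested in each but 39 with no filter. Among all genes edgeR called 0, while 2 were called by DESeq2, 1 with the replicate block, 1 without both shScr 4 and shEn1_2.1, 1 without the 4 libraries that stood apart (shScr 3, shScr 4, shEn1_1.1 and shEn1_2.1, an alternative chosen after seeing the data), and 0 to 1 with single libraries left out (1 without shScr 4). In the comparison without those 4 libraries, 5 of 38 members (SLC38A2, SLC7A1, SLC7A5, NARS1 and ASNS) had an unadjusted p below 0.05 by edgeR. So did 1512 of 14273 genes. With no filter NUPR1 alone of the members had one, beside 167 of 19046 genes. Its counts were 0 to 8 per library, and no comparison is drawn from them. The fold change of every member was smaller in size than its SE, though only just in CEBPB (0.144 ± 0.147) and PSPH (-0.1206 ± 0.1216). When some single library was left out, 22 of 31 named genes changed sign. The 31 include VARS1, SLC3A1 and SLC7A7 of the wider list, which kept their sign. These 22 log2 fold changes ran as follows: ATF4 from -0.12 to 0.0069, ATF5 from -0.095 to 0.13, DDIT3 from -0.30 to 0.25, TRIB3 from -0.048 to 0.046, CHAC1 from -0.091 to 0.33, SESN2 from -0.065 to 0.40, DDIT4 from -0.28 to 0.15, PHGDH from -0.26 to 0.083, PSAT1 from -0.062 to 0.076, SHMT2 from -0.22 to 0.18, PCK2 from -0.00014 to 0.14, CTH from -0.14 to 0.53, CBS from -0.12 to 0.093, SLC7A5 from -0.032 to 0.28, SLC3A2 from -0.057 to 0.16, SLC1A5 from -0.059 to 0.16, AARS1 from -0.15 to 0.065, WARS1 from -0.093 to 0.026, STC2 from -0.18 to 0.27, VLDLR from -0.10 to 0.32, SLC1A4 from -0.32 to 0.40 and ALDH18A1 from -0.043 to 0.020. The value for EN1 ran from 0.06 to 0.57 and the members' median from -0.03 to 0.03.

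The replicate number as a block left 6 libraries and gave a members' median of 0.05 with 0 called. In that fit 2 of 38 members (SESN2 and ALDH1L2) had an unadjusted p below 0.05 by edgeR, beside 278 of 14747 genes. With the block the sign changed for TRIB3 (-0.030), PHGDH (0.18), SHMT2 (0.32), MTHFD2 (-0.037), CBS (0.12), SLC7A5 (-0.0086), SLC3A2 (-0.059), AARS1 (0.055), STC2 (-0.24) and ALDH18A1 (0.065). It also changed for DDIT3 by limma-voom (-0.0038), and for DDIT4 (0.0026) and ALDH18A1 (0.0028) with no filter. Without shScr 4 and shEn1_2.1 it changed for DDIT4 (0.047), PSAT1 (-0.0097), CBS (0.062) and ALDH18A1 (0.018). Without the 4 libraries it changed for DDIT3 (-0.31), DDIT4 (0.28), PSAT1 (-0.10), SHMT2 (0.052), MTHFD2 (-0.13), CBS (0.20), AARS1 (0.0035), GARS1 (-0.11), STC2 (-0.028), VLDLR (-0.13) and ALDH18A1 (0.034). The other scalings changed no sign among the named genes, and the cause of these changes was not tested.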
